A study of Mus musculus with 2 samples.

Results

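The splicing factor genes described here are the protein-coding mouse genes whose symbols start with Srsf, Sf3a, Sf3b, Snrp, Hnrnp or U2af, with 1 symbol left out by rule, and they numbered 54 of the 21938 protein-coding genes of the GENCODE annotation of mm10. By family there were 11 Srsf, 3 Sf3a, 6 Sf3b, 11 Snrp, 20 Hnrnp and 3 U2af genes. The rule uses names alone and no measured value. The assay was ATAC-seq, in which the Tn5 transposase inserts adapters into accessible DNA and stretches rich in insertions are called as peaks. The cells were primary hematopoietic stem cells, the marrow cells that renew themselves and supply every blood lineage, from adult C57BL/6J males of 5 to 6 weeks. The 2 libraries, each from 50000 cells, are labelled biological replicates of 1 group. They share a donor identifier, and the labels do not say whether separate animals were used. Instruments are named for replicate 1 only (HiSeq 2000 and NextSeq 500), so whether the replicates differed in instrument is unknown. If they did, instrument and replicate cannot be told apart. With 1 group and no other cell type, the comparisons are among genes and between the replicates, and none has a p-value.

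Splicing removes introns from transcripts. The U1 and U2 small nuclear ribonucleoproteins (snRNPs) mark the start of an intron and its branch point, U2AF binds the end of the intron, and the SF3A and SF3B complexes are parts of the U2 snRNP that hold it on the branch point. SR proteins, encoded by the Srsf genes, mostly favour the use of the exons they bind, and hnRNP proteins coat nascent transcripts and often oppose splice site use. SF3B1, SRSF2 and U2AF1 are the splicing genes best known for recurrent mutations in myelodysplastic syndromes, disorders that arise in hematopoietic stem cells.

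A promoter was taken as 1 kb either side of any annotated transcription start site (TSS) of a gene. The main peak lists were those of each replicate after thresholding on the irreproducible discovery rate (IDR), a measure of how well peak ranks repeat. They held 25141 distinct intervals in replicate 1 and 24495 in replicate 2. Each interval carries a signal value from the authors' peak caller, whose scale is not given in the sources used here, so signals are also given as percentiles among the intervals of the same list. The lists hold no read counts, so depth is unknown, and a promoter without a peak is one where none was called at that threshold. As a check of the label, 8 of 14 stem cell marker genes had a promoter peak in both thresholded lists, beside 42.5% of all protein-coding genes. The 8 included Kit, Cd34, Hlf, Meis1, Runx1 and Gata2. In both of the less strict pseudoreplicated lists 13 of 14 had one, beside 59.5% of all genes. With so few markers the check is a weak one. Slamf1, Procr, Ly6a and Mecom were among those with none in either thresholded list. Of 10 markers of mature blood cells 2 had one, the platelet genes Gp9 and Pf4, and of 8 markers from outside blood 2 had one, Snap25 and Actn2.

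Promoter sequences of the 3 genes singled out are shown first, since the peaks below overlap them. The strongest summits of those peaks fall outside the stretches shown. They are RefSeq promoter entries of build GRCm38.p6, read 5′ to 3′ on the gene's strand and cut to the bases before the start that fall in no GENCODE exon of a protein-coding gene. Capitals mark any of the 12 short binding strings searched for, which are listed with their counts further down.
Sf3b1, chr1:55027482-55027728, minus strand: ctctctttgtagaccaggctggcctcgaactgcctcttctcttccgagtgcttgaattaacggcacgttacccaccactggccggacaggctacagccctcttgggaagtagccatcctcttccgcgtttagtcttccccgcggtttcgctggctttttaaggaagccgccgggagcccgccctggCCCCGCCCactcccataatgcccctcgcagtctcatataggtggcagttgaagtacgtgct
Srsf2, chr11:116853095-116853294, minus strand: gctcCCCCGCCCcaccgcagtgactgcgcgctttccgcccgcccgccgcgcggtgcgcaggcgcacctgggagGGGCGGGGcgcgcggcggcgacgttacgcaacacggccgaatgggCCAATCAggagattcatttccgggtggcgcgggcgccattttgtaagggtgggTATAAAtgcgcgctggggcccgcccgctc
U2af1, chr17:31658893-31659014, minus strand: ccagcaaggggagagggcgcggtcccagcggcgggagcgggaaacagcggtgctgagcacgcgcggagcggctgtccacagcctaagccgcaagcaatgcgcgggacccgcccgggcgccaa
The Sf3b1 stretch held a single such string, the reverse of the GC box GGGCGGGG, at −64 to −57 from the RefSeq start, where −1 is the base before it. In Srsf2 there were 2 GC boxes, a CCAAT box and the TATA box TATAAA at −29 to −24. U2af1 held none of the 12 strings in the stretch shown, while the 300 bases at its most upstream GENCODE start, which is a different window, held the RUNX string TGTGGTT and the GATA string AGATAA.

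Sf3b1, which encodes the SF3B subunit that contacts the intron's branch point, had a narrow peak with a single summit. The signal was 9.17 in replicate 1, at percentile 58.5 of that list, and 8.40 in replicate 2, at percentile 30.4. The intervals, chr1:55027299-55027700 and chr1:55027269-55027686, were 402 and 418 bp wide, with summits 7 and 1 bp into the gene from the nearest TSS. The rank was near the middle of the list in replicate 1 and in its lower part in replicate 2. Srsf2, the SR protein also known as SC35, had a signal of 8.63 in replicate 1 and 10.7 in replicate 2, at percentiles 50.8 and 64.3. Its intervals were wide, 1109 and 1056 bp, each with 3 summits, the strongest at −290 and −293 bp from the TSS. They also covered the start of Mfsd11, a gene that runs the other way from 201 bp upstream, so the signal cannot be divided between the pair. U2af1, the small U2AF subunit that reads the AG at the end of the intron, was the highest of the 3 genes in both libraries, with signals of 12.1 and 14.8 at percentiles 86.5 and 94.1. Its intervals, chr17:31658637-31659196 and chr17:31658637-31659175, lay over the printed stretch. The strongest summits were −47 and −29 bp from the nearest TSS. They were 76 and 94 bp into the gene from its most upstream start, outside that stretch. Across the promoters of all genes with a peak in both replicates, the same signals stood at percentiles 34.2 and 18.0 for Sf3b1, 27.1 and 47.5 for Srsf2, and 73.1 and 89.5 for U2af1. In the series-level list that draws on both libraries the signals were 9.73 for Sf3b1, 10.3 for Srsf2 and 15.8 for U2af1, the same order as by the mean percentile of the replicates.

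Nearly all of the splicing factor genes had a promoter peak. In both thresholded lists 50 of 54 (92.6%) did, beside 42.5% of all protein-coding genes. The count was 50 in replicate 1 alone and 51 in replicate 2 alone. In both pseudoreplicated lists it was 53 of 54 (98.1%), beside 59.5% of all genes, and the 2 series-level lists, thresholded and conservative, gave 53 each, beside 53.4% and 56.3%. By family, the thresholded count was 9 of 11 Srsf, 3 of 3 Sf3a, 5 of 6 Sf3b, 10 of 11 Snrp, 20 of 20 Hnrnp and 3 of 3 U2af genes. Promoters rich in CpG dinucleotides and genes with many annotated starts more often have a peak, and the splicing factor genes have both: 40 of the 54 lie in the highest tertile of genes by the observed over expected CpG ratio around the first start, where 68.6% of all genes had a peak and 38 of these 40 did. Weighting all genes to the members' CpG classes gave 59.8%, and weighting to their number of TSSs gave 55.0%. The CpG class is read at the first start, while the peak counted can lie at another. Snrpa1, Snrpc and Hnrnpm are such cases, and all fall in the lowest tertile.

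**Figure D1:**
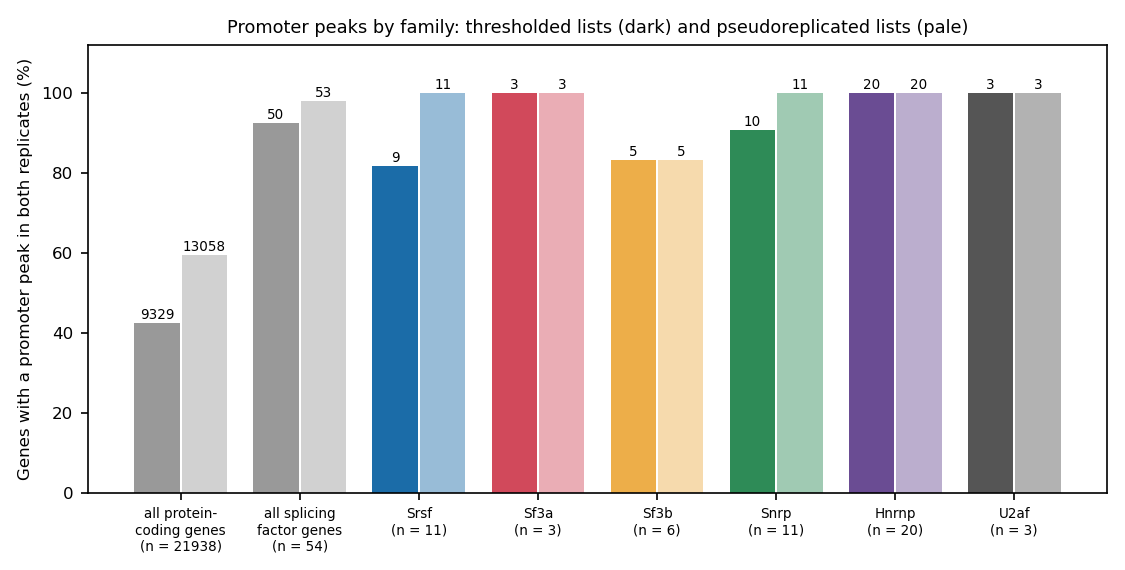
Share of genes (y axis, percent) with a promoter peak in both replicates, for all protein-coding genes, all splicing factor genes and each family (x axis), in the thresholded lists (dark bars) and the pseudoreplicated lists (pale bars), with the number of genes above each bar. The splicing factor genes stand at 92.6% and 98.1%, beside 42.5% and 59.5% of all genes.

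Their peaks were common but of moderate strength. Over the 50 genes with a peak in both lists, the median of the mean percentile of the 2 replicates was 51.6, beside 67.9 over all 9329 genes with such a peak. The gap differed between the replicates, at 63.1 beside 67.6 over genes with a peak in replicate 1 and 46.7 beside 63.9 in replicate 2. The mean percentile passed 50 in 27 of the 50 (54.0%), beside 70.4% of all such genes. When each list was reduced to its 50% strongest intervals, 24 of 54 genes kept a promoter peak in both, 44.4% beside 26.2% of all genes, and Sf3b1 was among those that did not. In the pseudoreplicated lists, where the background takes in many weaker promoters, the members' median was 80.2 and that of all genes with a peak 80.5. Signals ranged from 6.59 to 14.2 in replicate 1 and from 5.70 to 14.8 in replicate 2, while the highest promoter of any gene reached 24.9 and 24.0. The peaks were somewhat wider than usual, with a median width of 698 bp beside 621 bp, and 25 of 50 had several summits in both replicates (50%, beside 38.0%).

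**Figure D2:**
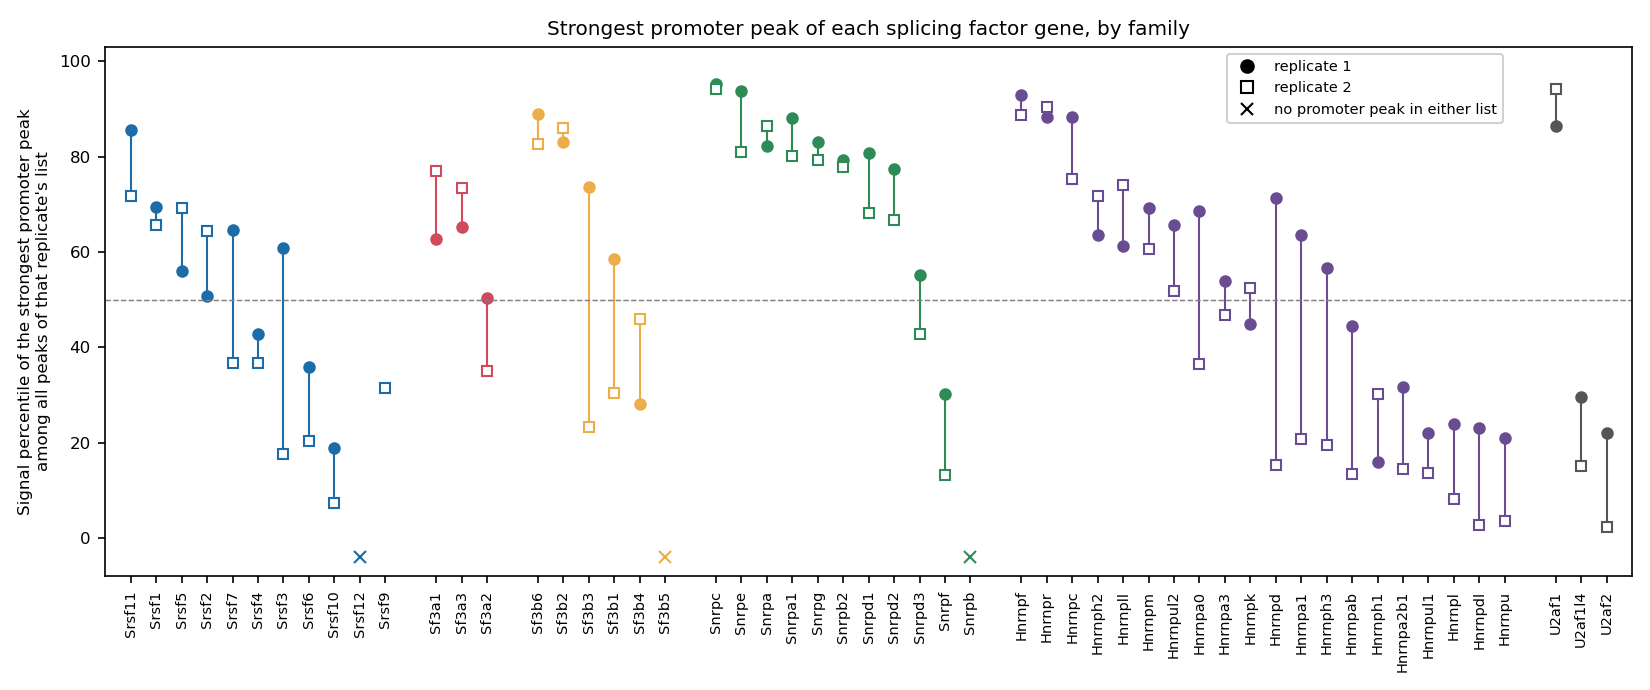
Percentile of the signal of each gene's strongest promoter peak among all peaks of the same list (y axis), per gene and family (x axis), with filled circles for replicate 1, open squares for replicate 2, a line joining the pair, and a cross where neither list had a peak. Most Snrp genes stand above 65 in both replicates, while the Hnrnp genes run from near the top to the bottom of the scale. The Srsf genes run from 85.6 (Srsf11, replicate 1) to 7.23 (Srsf10, replicate 2).

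The Snrp genes, which encode proteins of the snRNPs themselves, had the highest signals of the larger families, with a median mean percentile of 79.8. Snrpa and Snrpc encode the U1 proteins A and C, and Snrpa1 and Snrpb2 the U2 proteins A′ and B″. All 4 of these genes were high. Snrpc was the strongest of all 54 genes, with signals of 14.2 and 14.8 at percentiles 95.2 and 94.2. Snrpa had 11.4 and 13.2, Snrpa1 12.4 and 12.2, and Snrpb2 11.1 and 12. The other 7 genes encode the Sm proteins, which form a ring of 1 copy each around the U1, U2, U4 and U5 snRNAs, and their promoters covered a wide range, with a peak in both lists in 6 of the 7. Snrpe had 13.7 and 12.4, Snrpg 11.6 and 12.2, Snrpd1 11.3 and 11 and Snrpd2 10.9 in both. Snrpd3, with 8.94 and 9.17, was near the middle of the lists. Snrpf, with 7.42 and 7.27, was at percentiles 30.1 and 13.3. Snrpb, which encodes the Sm B protein, lacked a promoter peak in both thresholded lists, and in the pseudoreplicated lists its strongest signal was 5.07 and 5.98, with summits at −29 and 1 bp from the nearest TSS. In both replicates Snrpe and Snrpg were thus the highest of the ring and Snrpf the lowest of those with a thresholded peak.

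Among the Srsf genes the median mean percentile was 50.6. Srsf11 was highest, with signals of 12 and 11.3, on an interval that also covers the start of Lrrc40, 23 bp upstream on the other strand. Srsf1, the founding SR protein, had 10.1 and 10.8, and Srsf5 had 9.01 and 11.1. Srsf3, which also takes part in the export of spliced transcripts, had 9.38 at percentile 60.8 in replicate 1 and 7.62 at percentile 17.7 in replicate 2. Srsf7, its close relative, had 9.67 and 8.81 on an interval shared with Ttc39d. Srsf4 had 8.13 and 8.81, and Srsf6 had 7.71 and 7.83. Srsf10, a splicing repressor when dephosphorylated, was lowest, with 6.78 and 6.65. The remaining 2 did not have a peak in both thresholded lists. Srsf9 had one in replicate 2 alone, of 8.47, and its pseudoreplicated signals were 6.70 and 8.47 at summits −130 and −119 bp from the nearest TSS. Srsf12 had none, and in the pseudoreplicated lists gave 6.47 and 7.03 at 445 and 470 bp into the gene.

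By symbol, the Sf3a and Sf3b families together hold 9 genes. Sf3a1 had signals of 9.50 and 11.9, Sf3a3 9.72 and 11.5, and Sf3a2 8.61 and 8.72, so that Sf3a2 was the lowest in both replicates. Sf3b6, which encodes the p14 protein at the branch point, had 12.6 in both replicates and was the highest of its family by mean percentile, at 85.8. Sf3b2, with 11.6 and 13.1, followed at 84.5 and was the higher of the pair in replicate 2. Sf3b3 had 10.5 at percentile 73.6 in replicate 1 and 7.98 at percentile 23.3 in replicate 2, a spread larger than that of Sf3b1, on an interval shared with Cog4. Sf3b4 had 7.29 and 9.35 and was the lowest by mean percentile.

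Sf3b5 was the only splicing factor gene without a promoter peak in any of the 6 lists used, and the annotation bears on that. GENCODE gives it a single start at position 13005343 of chromosome 10, on the plus strand, in sequence with a CpG observed over expected ratio of 0.139. The RefSeq gene record starts at 13008450, which is 3107 bp further in. One of the strongest peaks of either list lies over that RefSeq start: chr10:13007928-13008728 in replicate 1, with a signal of 16.2 at percentile 98.7, and chr10:13007945-13008877 in replicate 2, with 16.6 at percentile 98.1. The interval is exonic in GENCODE. Under the rule used here it counts as distal, 3.03 kb from the annotated start, and by that signal it exceeds the promoter peak of every other splicing factor gene. With the outermost start of each RefSeq gene record in place of GENCODE's starts, a choice made after seeing the data, 49 of the 54 genes had a promoter peak in both replicates, beside 37.9% of the genes matched, and the Sf3b count became 6 of 6 while the Hnrnp count fell to 18 of 20, without Hnrnph1 and Hnrnpl. The choice of start bore on other genes too. Snrpa1, Snrpc, Hnrnpl and Hnrnpm had a peak in both replicates at an internal start but not within 1 kb of their most upstream start. There Hnrnpl had one in replicate 1 alone. When only the most upstream start was used, 46 of 54 genes (85.2%) were counted, beside 38.3% of all genes.

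All 20 Hnrnp genes had a promoter peak in both lists, with a median mean percentile of 46.0. Their mean percentiles ran from 12.2 to 90.8, about as wide a range as that of the 3 U2af genes, 12.2 to 90.3. The highest by mean percentile was Hnrnpf, whose protein binds runs of G, with 13.5 in both replicates, and its relatives were spread out: Hnrnph2, on the X chromosome, had 9.57 and 11.3 on an interval shared with Gla, Hnrnph3 had 9.06 and 7.76, and Hnrnph1 had 6.59 and 8.39. Hnrnpr had 12.5 and 13.9, above Hnrnpf in replicate 2, and Hnrnpc, which binds runs of U, had 12.5 and 11.7. The A/B group was lower. Hnrnpa0 had 10 and 8.80, Hnrnpa3 8.83 and 9.40, Hnrnpa1 9.56 and 7.84, Hnrnpa2b1 7.51 and 7.37, and Hnrnpab 8.24 and 7.28. Hnrnpd, also known as AUF1, had 10.3 and 7.44, the largest fall in signal between the replicates at −0.46 on the log2 scale, while its relative Hnrnpdl had 7.02 and 5.80. Hnrnpll, a regulator of CD45 exon choice in lymphocytes, had 9.41 and 11.6, and Hnrnpl, its paralog, 7.08 and 6.75. Hnrnpm had 10.1 and 10.4, and Hnrnpk 8.27 and 9.79. Hnrnpu, also called SAF-A, was the lowest of the family by mean percentile, with 6.88 and 6.03 at percentiles 21 and 3.46, though Hnrnph1 was lower in replicate 1 and Hnrnpdl in replicate 2. Of its paralogs, Hnrnpul1 was also low, with 6.94 and 7.31, while Hnrnpul2 had 9.77 and 9.74. Low in this sense still means a called peak.

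The U2af genes differed widely. Beside U2af1 at a mean percentile of 90.3, its partner U2af2, the large subunit that binds the polypyrimidine tract, stood at 12.2, with signals of 6.95 and 5.70 and summits at −496 and −506 bp from the TSS. U2af1l4, a paralog of U2af1, had 7.38 and 7.44 on intervals that lay apart from each other in the 2 replicates.

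The replicates gave the members' signals about as alike as those of other genes, while their percentiles lay further apart. The signals of the 50 genes had a Pearson correlation of 0.84 on the log2 scale, beside 0.85 over the 9329 genes, and the SD of the log2 difference between replicates was 0.20 in both sets. Genes are not independent replicates, both sets come from the same pair of lists, and the value is a description. The strongest intervals of the replicates overlapped in 47 of 50, the exceptions being Hnrnpab, Hnrnpu and U2af1l4. The signal was higher in replicate 2 in 27 of 50 (54.0%), beside 66.4% of all genes with a peak, and the percentile was lower there in 37 of 50 (74.0%), beside 63.4%. The 2 percentiles of a gene differed by a median of 13.2 points, beside 8.5, and by over 30 points in 7 of 50 genes (14.0%, beside 7.80%): Srsf3, Sf3b3, Hnrnpa0, Hnrnpa1, Hnrnpab, Hnrnpd and Hnrnph3, all lower in replicate 2. Whether instrument or depth had a part in this was not tested.

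Summits lay close to the start and mostly before it. In replicate 1 the summit was upstream of the nearest TSS in 45 of 50 genes (90%, beside 77.9% of all genes with a peak), at a median of −79 bp, beside −47 bp. It fell between −300 and 100 bp in 43 of 50 (86.0%, beside 83.8%). The interval covered an annotated TSS in both replicates in 45 of 50 (90%, beside 86.3%), and the exceptions were Srsf4, Snrpd2, Hnrnpa0, Hnrnpab and U2af2. These are GENCODE starts. The RefSeq gene record of Snrpd2 starts inside both of its intervals, and that of Srsf4 inside its replicate 2 interval. The U2af2 record starts 1258 bp from the nearest GENCODE start, just before both of its intervals. The Hnrnpa0 and Hnrnpab records start outside the intervals that missed a GENCODE start. Many members sit back to back with another gene. A protein-coding gene on the other strand started within 1 kb upstream in 18 of 54 (33.3%), beside 11% of all genes and 21% of genes with a promoter peak. These 18 included Sf3a1 with Ccdc157 at 57 bp, Sf3a2 with Plekhj1 at 4 bp, Snrpa with BC024978 at 21 bp, Snrpd3 with Gucd1 at 42 bp, Hnrnpk with Rmi1 at 51 bp and U2af1l4 with Psenen at 60 bp. Hnrnpa1 and Hnrnpa2b1 each face a gene of a heterochromatin protein 1 family member, Cbx5 at 616 bp and Cbx3 at 466 bp. A peak at such a pair cannot be assigned to 1 of the genes.

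**Figure D3:**
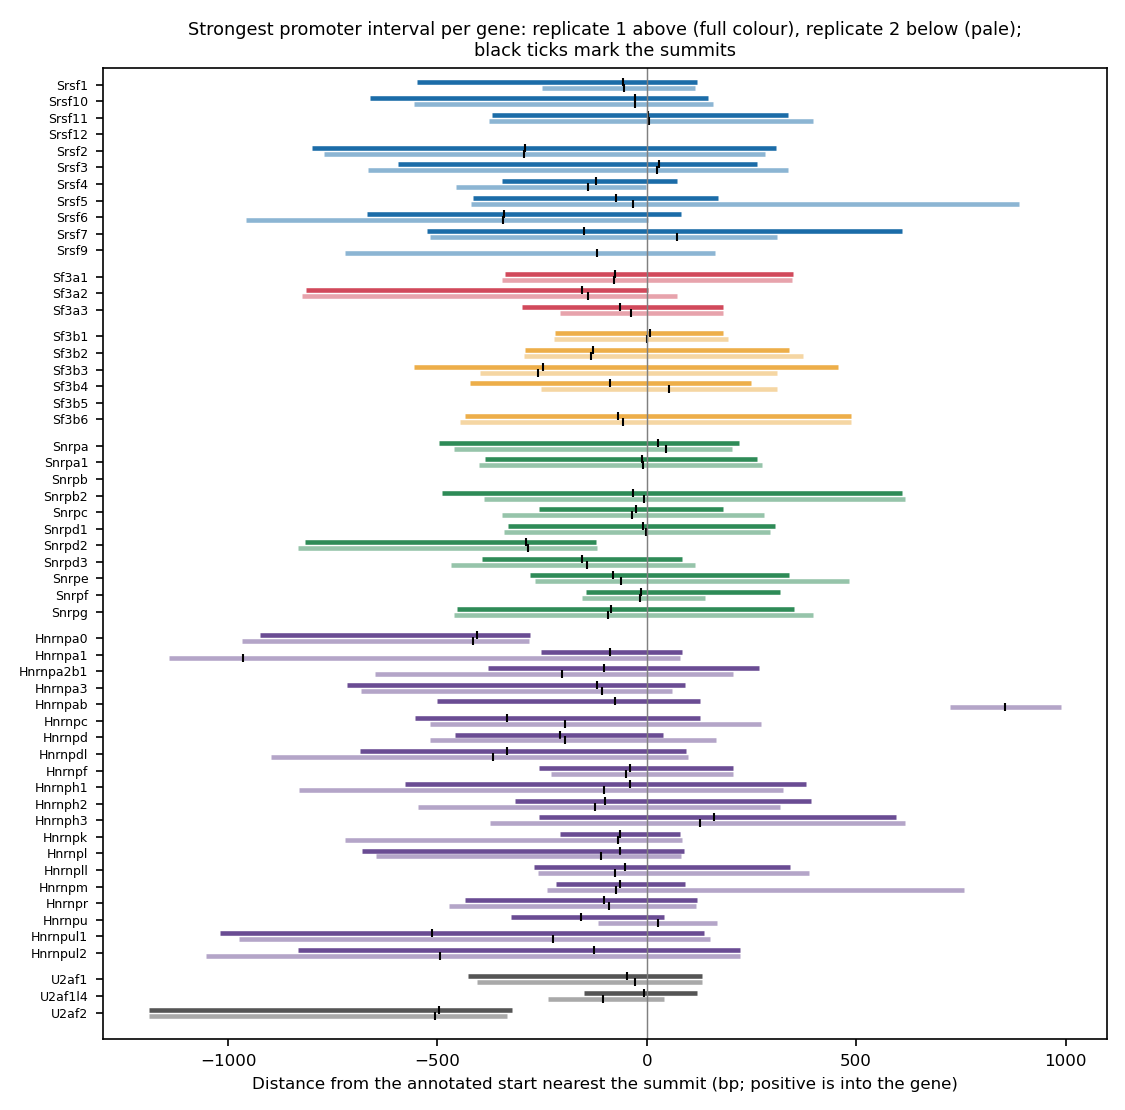
Strongest promoter interval of each gene (y axis) in replicate 1 (full colour) and replicate 2 (pale), placed by distance in bp from the annotated start nearest its summit (x axis, positive into the gene), with black ticks at the summits. Most intervals span the start, and those of Snrpd2, Hnrnpa0 and U2af2 end before it in both replicates. The starts are GENCODE's, and the RefSeq records of Snrpd2 and U2af2 start elsewhere.

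Short strings known as binding sites were searched on either strand from 250 bases before to 50 after the RefSeq start, in the 47 members with an entry and in all 16522 protein-coding genes with one. Hnrnpll, Hnrnpul2, Sf3b4, Sf3b5, Snrpb, Snrpd1 and U2af2 have no entry in the table used. The ETS string CCGGAAG was in 16 of 47 (34.0%), beside 12.3% of all promoters and 20.5% of those of genes with a promoter peak in both replicates. By family it was in 3 of 3 Sf3a, 3 of 4 Sf3b, 4 of 9 Snrp, 4 of 11 Srsf, 2 of 18 Hnrnp and 0 of 2 U2af promoters. It is the string shown because it was, after the counts were seen, the one with the widest gap in percentage points. The Sf3a and Sf3b copies follow, with the string in capitals and 8 bases either side, printed so that the string reads 5′ to 3′, and where a promoter had 2 copies the one on the gene's strand is given.
Sf3a1, chr11:4160339-4160361, plus strand: gggcgggaCCGGAAGtgctcccg
Sf3a2, chr10:80798651-80798673, plus strand: ctttgctcCCGGAAGggatcgct
Sf3a3, chr4:124714763-124714785, minus strand: cgcgtgtcCCGGAAGtgtcttgg
Sf3b2, chr19:5295454-5295476, minus strand: ttacgcaaCCGGAAGtttctgga
Sf3b3, chr8:110847018-110847040, plus strand: tcgcaagcCCGGAAGcgcccacc
Sf3b6, chr12:4817530-4817552, plus strand: tccgcaatCCGGAAGcgttctgg
In Sf3a1 the string ends at the base before the RefSeq start, and in Sf3b2 it lies at −11 to −5. All 16 members had a copy inside the called interval of both replicates. Of the 20 copies in all, 18 lay before the start and 12 of them wholly within 100 bases of it. The window searched runs from 250 bases before the start to 50 after it, and most members' intervals cover a start. The same counts were not made over all promoters, so these describe position only.

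The other 11 strings were closer to their background in percentage points, though not all as ratios, where the few E2F and ZBTB33 matches lay further from it. The GC box GGGCGGGG of SP and KLF factors was in 16 of 47 members (34.0%), beside 24.6% of all promoters, and 8 of the 16 were Srsf genes. Among the 45 members with a promoter peak in both replicates it was in 14 (31.1%), beside 33.3% of all genes with such a peak. For the other strings, ETS included, the members' share is over all 47, with or without a peak, and any second background is over genes with a peak. CCAATCA, the CCAAT box, was in 8 (17.0%, beside 9.43% and 12.7%), and the E2F string TTCCCGCC in 5 (10.6%, beside 3.03% and 4.41%), of which 3 were Srsf1, Srsf4 and Srsf10. The E-box CACGTG was in 5 (10.6%, beside 8.12% and 10.4%), and 4 of these were Hnrnp genes. TATAAA was in 6 (12.8%, beside 12.8% and 6.54%), AGATAA of GATA factors in 4 (8.51%, beside 9.71% and 6.20%), and CTCGCGAG, linked to ZBTB33, in 3 (6.38%, beside 1.35% and 2.40%). GCATGCGC of NRF1 and TGACGTCA of CREB and ATF factors were in 2 each (4.26%, beside 3.76% and 2.41% of all promoters), and AAGATGGCG of YY1 and TGTGGTT of RUNX factors in 1 each (2.13%, beside 2.02% and 4.80%). Over genes with a promoter peak the shares of these strings were 5.88%, 3.7%, 3.64% and 3.52%, in that order. A match says only that these letters are present. In windows of 50 bp either side of the summit in place of the start, the ETS string was in 8 of 45 members (17.8%, beside 11.1%).

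**Figure D4:**
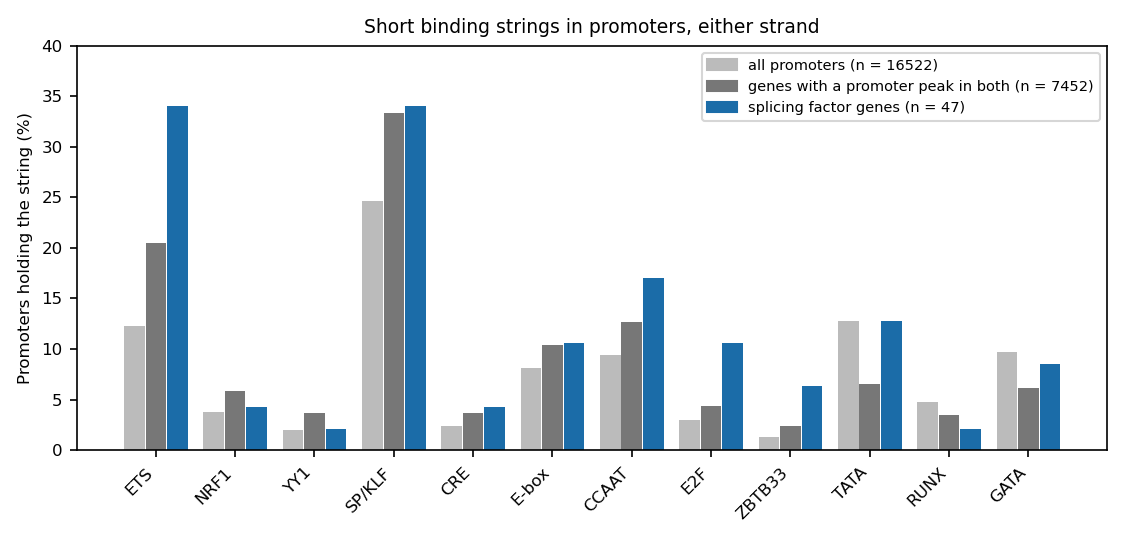
Share of promoters (y axis, percent) holding each of the 12 strings (x axis) for all promoters (light grey), genes with a promoter peak in both replicates (dark grey) and the splicing factor genes (blue). The blue bars take in all 47 members with a promoter entry, with or without a peak. The ETS bar of the splicing factor genes stands at 34.0%, beside 12.3% and 20.5%.

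Away from promoters the splicing factor genes were not rich in peaks. A distal peak was one shared by the replicates whose summit lay over 1 kb from every protein-coding TSS, and it was given to every gene that had a TSS no more than 50 kb away. The 54 genes had 39, a mean of 0.722 a gene, beside 0.738 over all genes and 0.911 over genes with a promoter peak. At least 1 was found near 28 of the 54 (51.9%), beside 44.5% of all genes and 53.6% of those with a promoter peak. By family the mean was 0.364 for Snrp, the family with the strongest promoters of the larger ones, 0.333 for Sf3b, 0.455 for Srsf, 1.00 for Hnrnp and 1.33 for both Sf3a and U2af. Of the 2 Sf3b peaks, 1 is the Sf3b5 peak over its RefSeq start. Of the 39 peaks, 24 were intergenic, 11 intronic and 4 exonic, a split given here for these peaks alone. A splicing factor gene held the nearest protein-coding TSS for 12, so most have another gene closer. With each peak given to its nearest gene alone, the mean was 0.222 a gene, beside 0.358 over all genes.

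Hnrnpab had the most, with 4. The strongest of them, with signals of 13.4 and 14.4, lies 41.6 kb downstream in an intron of Col23a1, whose own start is closer. Sf3a3 had 3, of which a pair in Inpp5b had signals of 13.3 and 13.7 and of 11 and 12.2. Hnrnpa0, Hnrnpf and Hnrnpl had 2 each, as had Hnrnpul1, Snrpc and U2af1. The nearer Hnrnpul1 peak, at −1.38 kb, covers the start of its RefSeq gene record, as the Sf3b5 peak does. The pair at Hnrnpf lay at −8.69 and −20.7 kb, and the nearer one, which has Hnrnpf as its nearest gene, had signals of 10.6 and 13.3. U2af1 had peaks at −6.06 kb, chr17:31664815-31665088, with 9.64 and 12.3, and at −34.6 kb, chr17:31693361-31693753, with 7.18 and 9.02, the second nearer to Cryaa. For Sf3b1 there was 1, at −1.56 kb, chr1:55028920-55029384, and it was weak, with 6.89 and 6.74 at percentiles 21.1 and 8.01. Srsf2 had none in these lists and 2 in the pseudoreplicated lists.

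**Figure D5:**
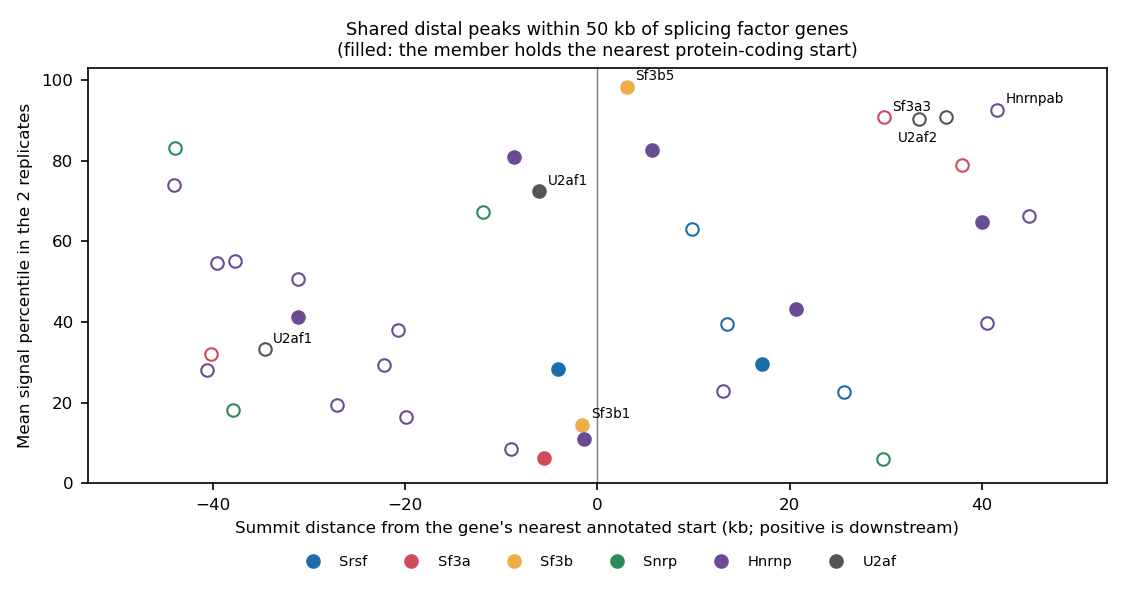
Mean signal percentile in the 2 replicates (y axis) of each shared distal peak against its distance in kb from the nearest start of the splicing factor gene (x axis, positive downstream), coloured by family and filled where that gene holds the nearest protein-coding start. The Sf3b5 peak at 3.03 kb, which lies over its RefSeq start, is the highest, and the Sf3b1 peak at −1.56 kb is among the lowest.

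Other genes of the pathway, taken from 9 lists by function, had promoter peaks in both replicates in 100 of 130 cases (76.9%, beside 42.5% of all genes). Of the further snRNP proteins 20 of 21 had one, the strongest being Snrnp25, a protein of the U12-type spliceosome, with 16.6 and 17.9, and the exception Snrnp27. Among the catalytic-step factors 21 of 23 did, led by the helicase Aqr with 15.2 and 16.6, without Dhx16 and Ddx39b. All 8 partners at the end of the intron did, including Zrsr2, another gene mutated in myelodysplastic syndromes, with 10.8 and 9.07. The exon junction complex had 8 of 9, with Pnn highest and Magohb without, and the snRNP assembly factors 9 of 11, with the arginine methyltransferase Prmt5 highest at 15.7 and 17.1 and Gemin5 and Gemin7 without. The LSm ring had 6 of 8, led by Lsm8, without Lsm2 and Lsm7. Broadly expressed regulators had 15 of 18, led by Rbm5, without Ptbp3, Celf2 and Qk. The SR kinases and SR-related proteins had the lowest share of these 8 lists, 8 of 13, led by Tra2a, without Srpk1, Srpk3, Clk1, Clk3 and Srek1. Of the genes named as without a peak in both replicates, Lsm2, Lsm7, Gemin5, Srpk3 and Celf2 had one in neither thresholded list and each of the others had one in 1 of the lists. Without the regulators known mainly from brain, muscle or epithelium the count was 95 of 111 (85.6%). Those tissue-restricted regulators had 5 of 19 (26.3%), below the 42.5% of all genes, and Elavl2 was the strongest of the 5.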

How the data were processed

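ATAC-seq peak lists of 2 hematopoietic stem cell libraries were used. The authors deposited narrowPeak lists in mm10, with a signal value per peak, and the per-library lists derive from that library alone, per the deposited file notes. Which aligner and peak caller made them, and how mitochondrial reads and transposase offsets were handled, is not given in the sources used here. Intervals listed once per summit were counted once, at their strongest summit (25141 intervals from 34499 lines, and 24495 from 34174). Overlap meant at least 1 bp. Genes and starts came from GENCODE M21, all transcripts of protein-coding genes. CpG ratios were taken over 500 bp either side of the most upstream start. No summit 31-mer of a member recurred in the genome. The counting was tested on simulated data, where all 200 planted promoters were called. Python 3 with numpy was used.

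The gene families, lists, strings and alternatives were chosen with earlier results of these data known, although the rule for the genes reads names alone. Every gene of the families was named, with Sf3b1, Srsf2 and U2af1 in full, the highest and lowest of each family by mean percentile, those without a peak in both lists, and the 5 with the most distal peaks, ties alphabetical. Of the other lists, the strongest gene was named, and those without a peak where they numbered 5 or fewer. No test was run, since there is 1 group. Alternatives were other windows, starts, overlap rules and lists, and each replicate alone.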

Additional observations from a re-analysis of the deposited data

How the results depend on the processing

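Counts were held as unchanged when within 1.5 times the reported value. The total, the family counts and the count of other splicing genes stayed within that under every alternative tried but one: with the 50% strongest intervals the total fell from 50 to 24, Srsf to 4, Sf3b to 2, Hnrnp to 7 and U2af to 1. The total was 50 to 51 with 1 replicate left out. The mean of 0.722 distal peaks became 0.333 at 25 kb and 1.56 at 100 kb, beside 0.403 and 1.35 over all genes. With each peak given to its nearest gene it was 0.222, beside 0.358. In the pseudoreplicated lists it was 2.44, beside 2.45, and with the 50% strongest intervals 0.278, beside 0.285. Without replicate 1 the mean was 1.11, beside 1.01 over all genes, and without replicate 2 it was 0.963, beside 1.03. The median percentile of 51.6 became 80.2 in the pseudoreplicated lists. Members holding any of the 12 strings numbered 41 of 47 (87.2%, beside 65% of all promoters). In the shorter window within 50 bp of the summit they numbered 25 of 45 (55.6%, beside 45% of all genes with such a summit). The E2F string fell from 5 to 0 there (0%, beside 1.36%) and CCAAT from 8 to 4 (8.89%, beside 9.65%). No paired analysis was possible because there is only 1 group. Peak lists hold no read counts, so what depth limits is unknown.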
